A study of Rattus norvegicus with 24 samples.

Results

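The IL-6 family of cytokines and the kinases and transcription factors behind their receptors were followed in the retina of rats made diabetic with streptozotocin (STZ), a toxin of the insulin-producing beta cells. The 9 genes were Il6, Cntf and Lif (ligands), Il6r and Il6st (receptor chains), Jak2 and Jak3 (kinases), Stat3 (a transcription factor) and Socs3 (an inhibitor). They were grouped by their known pathway, although Il6, Jak3 and Stat3 were among the genes that the study itself took from these arrays to a PCR assay, so their levels here are not independent of that choice. A probe was assigned to a gene where its RefSeq accession belonged to that gene. By this rule 11 of the 33849 rat probes on the array belonged to 8 of the 9 genes. Il6r, Jak3 and Stat3 each had a pair of probes, the other genes had 1, and no probe was named Il6st, which is not analysed here.

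Total RNA was taken from the retinas of male Sprague Dawley rats and measured on 24 CodeLink arrays, which read 1 colour. There were 4 groups of 6 arrays: diabetic rats 1 month after STZ, diabetic rats 3 months after STZ, and age-matched controls without STZ for each time. Each array is taken as 1 rat, following the sample titles, although the paper lists fewer rats for the 1-month controls of this set. The diabetic rats received no exogenous insulin, and only those whose blood glucose passed a limit were kept as diabetic. A level below is the log2 of a probe's background-subtracted intensity divided by the median of all rat probes on that array, so that 0 is the array median. Levels are compared within a probe and never between probes.

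In the IL-6 family, a ligand binds its own receptor chain and then the shared chain gp130, the product of Il6st. Janus kinases bound to the receptors phosphorylate Stat3, which moves to the nucleus and switches on genes of the acute phase and of reactive glia, and also Socs3, which shuts the signal off. In the retina Cntf and Lif are known as survival factors for photoreceptors and ganglion cells, and Müller glia are a known source and target of the family. Jak3 is bound to the common gamma chain of the interleukin-2 receptor group and is best known from lymphocytes.

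At 1 month none of the tested probes of these genes was called, and at 3 months Il6, Cntf, Lif, 1 of the Il6r probes and 1 of the Jak3 probes were higher in diabetic retina. Testing was limited to probes with a median level over the 24 arrays above -0.85, the 35th percentile, which left 22025 probes in all and 9 of the 11 probes here. A probe was called where the adjusted p of limma was under 0.05 and the fold at least 1.2. At 1 month limma called 0 of the 9 probes, beside 0.00908% of all tested probes called higher and 0% called lower, 3 of the 9 had an unadjusted p under 0.05 (4.21% of all tested probes did), and 1 passed an exact permutation test at that limit (7.26% of all did). At 3 months 5 of the 9 probes were called higher, which is 55.6%, and 0 lower. Of all tested probes 50.5% were called higher and 3.55% lower, so the share among these genes lay near that of the array. The log2 fold change at 3 months had a median of 0.44 over the tested probes of the array and of 0.78 over the 9 probes, of which 6 lay above 0.44. Every change at 3 months has to be read against that shift of the whole array. After quantile normalization, which gives all arrays the same distribution, the median of all probes was 0.16. Then 6 of the 9 probes were called higher and 0 lower, against 24.6% and 6.92% of all probes. The added call was the second Il6r probe, GE21817 (1.88). Its change under median scaling, 1.32, fell to 0.32 without the array 3M STZ 1.

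**Figure D1:**
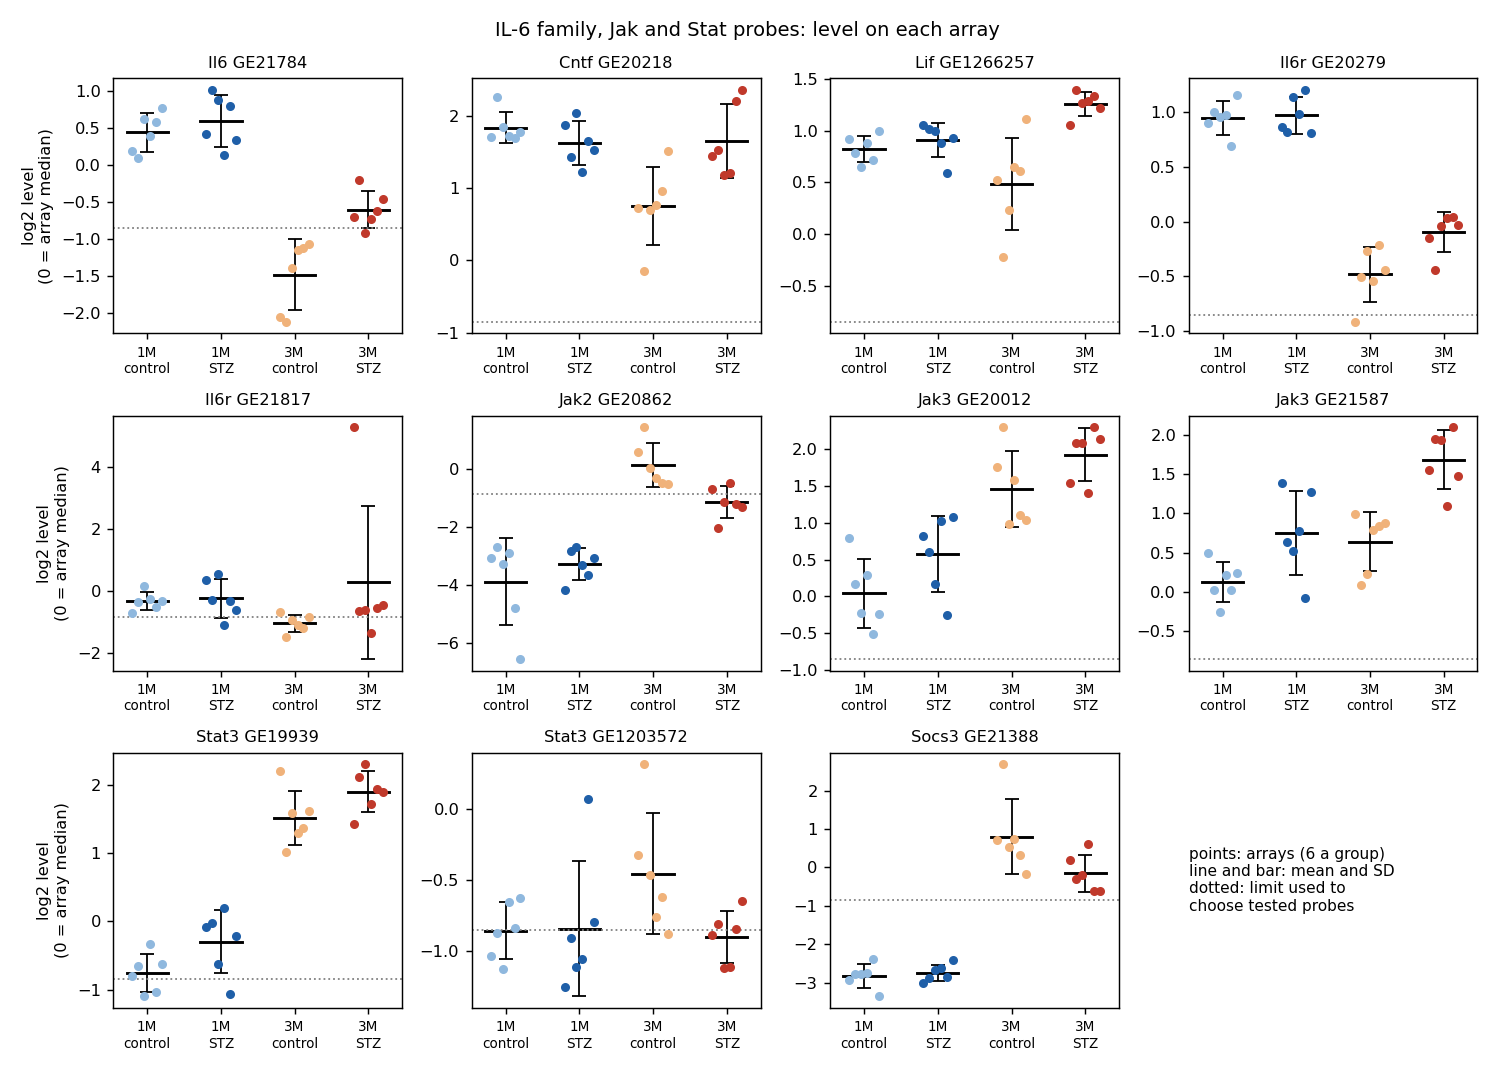
Log2 level (y axis, 0 is the array median) of each of the 11 probes on each array, by group (x axis). Points are arrays (6 a group), the horizontal line and bar are mean and SD, and the dotted line is the limit used to choose tested probes. For Il6 and for Jak3 probe GE21587 all 6 diabetic arrays at 3 months lie above all 6 controls, while Jak2 and Socs3 lie under the limit on every array at 1 month.

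Il6, the ligand that gives the family its name, was higher in diabetic retina at 3 months but sat low on the arrays. At 3 months the 6 control levels of probe GE21784 ran from -2.12 to -1.08 with a median of -1.27, and the 6 diabetic levels from -0.92 to -0.21 with a median of -0.67. All 6 diabetic arrays lay above all 6 controls, as they did for 9.49% of all tested probes. The log2 fold change was 0.88 ± 0.19 (SE), and the adjusted p from limma was 0.0012. An exact permutation test of the 924 splits of 6 against 6 gave a two-sided p of 0.00216, the smallest it can give. None of the 6 control arrays was above the limit, and 5 of the 6 diabetic arrays were, so measured against the limit the diabetic level was at least 1.18-fold higher. Quantile normalization gave 1.90 and subtraction of each array's 5th percentile 3.47, so that the direction held but the size did not. At 1 month the levels were 0.09 to 0.76 in controls and 0.13 to 1.01 in diabetic rats, which overlapped, and the log2 fold change was 0.15 ± 0.19.

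Cntf, the ciliary neurotrophic factor, rose at 3 months with overlapping groups. Its control levels at 3 months ran from -0.15 to 1.52 with a median of 0.75, and its diabetic levels from 1.17 to 2.35 with a median of 1.48. Of the 6 diabetic arrays 3 lay above the highest control. The change of 0.90 ± 0.22 on the log2 scale was called by limma with an adjusted p of 0.0027. The 1-month medians were 1.75 in controls and 1.59 in diabetic rats, and 4 of the 6 diabetic arrays lay below the lowest control. That log2 fold change, -0.21 ± 0.22, did not pass the test. Without 3M Control 2, the lowest control at 3 months, the 3-month change was 0.72 and was still called.

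Lif, the leukemia inhibitory factor, had tight groups apart from the 3-month controls. The 3-month control levels ran from -0.22 to 1.12 with a median of 0.57, and the diabetic levels from 1.06 to 1.40 with a median of 1.28. Of the diabetic arrays 5 lay above the highest control. The log2 fold change was 0.78 ± 0.16, with an adjusted p from limma of 0.00066. In the 1-month groups all levels lay between 0.59 and 1.05, and the log2 fold change was 0.09 ± 0.16. The diabetic SD at 3 months was 0.12 and the control SD 0.45.

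For the receptor chain Il6r, the 2 probes pointed the same way at 3 months and differed in their errors. Probe GE20279 had control levels from -0.91 to -0.22 (median -0.47) and diabetic levels from -0.44 to 0.04 (median -0.03). Of its diabetic arrays 5 lay above the highest control. Its log2 fold change of 0.38 ± 0.13 was called by limma (adjusted p 0.019), yet it lay below the 0.44 of all probes, and it was 0.01 when the arrays were scaled to the median of the tested probes alone. Probe GE21817 had control levels from -1.48 to -0.69. Its diabetic levels ran from -1.37 to -0.44 on 5 arrays and reached 5.28 on 3M STZ 1. The log2 fold change was 1.32 ± 0.64 with an adjusted p from limma of 0.081, and 0.32 without that array. The 1-month changes of the probes were 0.02 ± 0.13 and 0.09 ± 0.64. On the scale of the array percentiles, GE20279 lay at 60.7 to 68.7 in the 1-month groups, at 18.3 to 42.7 in the 3-month controls and at 39.7 to 50.9 in the 3-month diabetic rats.

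**Figure D2:**
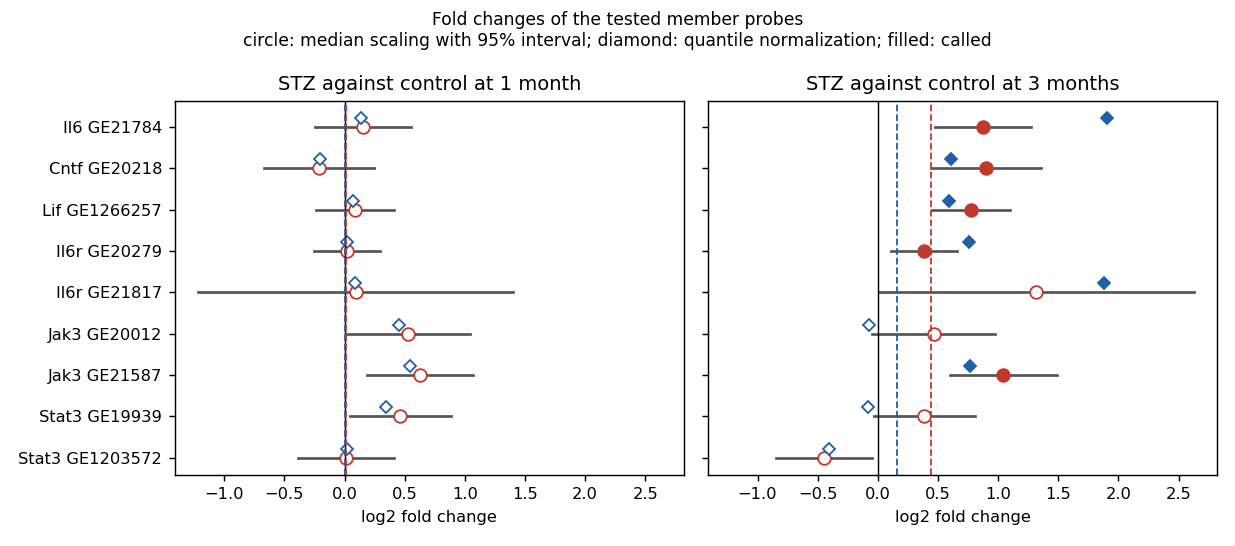
Log2 fold change of STZ against control (x axis) for the 9 tested probes (y axis) at 1 month and at 3 months. Circles with bars are median-scaled values with 95% confidence intervals, diamonds are quantile-normalized values, filled symbols were called, and dashed lines are the medians of all tested probes (red for median scaling and blue for quantile normalization). At 3 months 5 circles and 6 diamonds are filled, and the Stat3 probes lie on opposite sides of 0 under median scaling.

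Jak3, the kinase of the common gamma chain receptors, was higher in diabetic retina at 3 months on 1 of its 2 probes. Under median scaling this was the largest change among the 5 called probes, but not after quantile normalization, where it was 0.76 beside 1.90 for Il6. Probe GE21587 had 3-month control levels from 0.09 to 0.99 with a median of 0.81, and diabetic levels from 1.10 to 2.09 with a median of 1.74. The groups did not overlap under median scaling, where 9.49% of all tested probes were likewise apart and higher. After quantile normalization they overlapped. On the log2 scale the change was 1.04 ± 0.22 and the adjusted p from limma 0.00077. The exact permutation p was 0.00216. The same probe at 1 month had control levels from -0.26 to 0.49 and diabetic levels from -0.07 to 1.38, with 5 of the 6 diabetic arrays above the highest control. That change, 0.63 ± 0.22, had an unadjusted p from limma of 0.0071 and an adjusted p of 0.96, and an exact permutation p of 0.032. The change at 3 months exceeded that at 1 month by 0.42 ± 0.31, which did not pass the test (adjusted p 0.29 from limma).

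The second Jak3 probe, GE20012, did not show the same 3-month difference. Its control levels ran from 0.99 to 2.30 with a median of 1.34 and its diabetic levels from 1.40 to 2.30 with a median of 2.08. The log2 fold change was 0.46 ± 0.25 (adjusted p 0.11 from limma), with a 95% confidence interval of -0.05 to 0.98, and it was -0.08 after quantile normalization. The highest control was 3M Control 2, and without that array the change was 0.63 and was called. At 1 month this probe gave 0.53 ± 0.25, near the value of GE21587. On 3M Control 2 the probes of Jak3 went apart, GE20012 being the highest of its controls at 2.30 and GE21587 the lowest at 0.09.

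Jak2, which serves the receptors of growth hormone, erythropoietin and interferon gamma as well as gp130, fell under the limit over the 24 arrays and was not among the tested probes. Its levels at 1 month were -6.56 to -2.68 in both groups, and 0 of the 12 arrays were above the limit, so no fold is given. At 3 months the control levels ran from -0.51 to 1.45 with a median of -0.13, and all 6 arrays were above the limit. The diabetic levels ran from -2.03 to -0.46 with a median of -1.18, and 2 of the 6 arrays were above it. Of the diabetic arrays 5 lay below the lowest control. In a fit of all probes without the limit the log2 fold change was -1.27 ± 0.49 with an adjusted p from limma of 0.038. The call was lost with quantile normalization within time points (-1.25, adjusted p 0.086 from limma) and with the interquartile range of each array as a covariate (-1.02), and subtraction of the 5th percentile gave -2.58. The size rests on values under the limit on 4 of the 6 diabetic arrays. Without 3M Control 2 it was -1.0 with an adjusted p from limma of 0.12. In the unfiltered fit 14.2% of all 33849 probes were called lower at 3 months, and the median of all was 0.19.

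Stat3 is the factor that carries the gp130 signal to the nucleus, and its 2 probes went in opposite directions at 3 months without either passing the test. Probe GE19939 had control levels from 1.02 to 2.21 (median 1.48) and diabetic levels from 1.43 to 2.31 (median 1.92), which overlapped. Its log2 fold change was 0.39 ± 0.20 (adjusted p 0.11 from limma), below the median of all probes, and -0.08 after quantile normalization. Probe GE1203572 had control levels from -0.88 to 0.32 (median -0.54) and diabetic levels from -1.12 to -0.65 (median -0.87). Its log2 fold change was -0.45 ± 0.20, with an adjusted p from limma of 0.053 and a 95% confidence interval of -0.85 to -0.05. With the arrays scaled to the median of the tested probes it was -0.82 and was called lower, as were 12.4% of all tested probes. This probe lay close to the limit in all groups, with 3 to 5 of 6 arrays above it except in the 1-month diabetic rats, where 2 were. At 1 month GE19939 gave 0.46 ± 0.20 (unadjusted p 0.032, adjusted p 1.00, both from limma), with 4 of 6 diabetic arrays above the highest control, and GE1203572 gave 0.01 ± 0.20.

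Socs3, the feedback inhibitor that Stat3 is known to induce, was also under the limit over the 24 arrays. At 1 month its levels were -3.35 to -2.40 in controls and -3.00 to -2.43 in diabetic rats, and no array was above the limit, so no fold is given. At 3 months all 12 arrays were above it. The control levels ran from -0.17 to 2.69 with a median of 0.62, and the diabetic levels from -0.61 to 0.61 with a median of -0.25, and 4 of the 6 diabetic arrays lay below the lowest control. The fit without the limit gave a log2 fold change of -0.96 ± 0.31 (adjusted p 0.017 from limma). The highest control, 2.69, was again on 3M Control 2, and without that array the change was -0.58 and was still called (adjusted p 0.038 from limma). After quantile normalization it was -1.37, and with each array's interquartile range as a covariate it was -0.11 and not called.

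The levels of several of these probes moved more between the time points than between diabetic and control rats. In control rats the Il6 probe lay at percentiles 51.4 to 62.0 of the array at 1 month and at 2.59 to 14.3 at 3 months. Socs3 went the other way, from 11.04 to 17.96 at 1 month to 45.5 to 97.2 at 3 months, and Stat3 probe GE19939 from 34.9 to 44.9 at 1 month to 76.5 to 89.7 at 3 months. The order of the 4 groups for Il6, from the lowest, was 3-month control, 3-month diabetic, 1-month control and 1-month diabetic, of which only the 1-month groups overlapped. For Lif and Cntf the 3-month control group was the lowest by mean, and its range overlapped those of both 1-month groups for Lif but only that of the 1-month diabetic rats for Cntf. For Jak3 probe GE21587 the order was 1-month control, 3-month control, 1-month diabetic and 3-month diabetic, and each group overlapped its neighbour. For Stat3 probe GE19939 and for Socs3 both 3-month groups lay above both 1-month groups without overlap. The arrays of the time points also differed as a whole. The interquartile range of the log2 levels of all probes was 3.36 to 3.67 at 1 month, 1.48 to 2.23 in the 3-month controls and 2.07 to 2.70 in the 3-month diabetic rats. Age and array run cannot be told apart here, and no test between time points was made for the levels.

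The diabetic effect itself was compared between the time points by an interaction term, the 3-month change minus the 1-month change. For Cntf the difference was 1.11 ± 0.32 (adjusted p 0.030 from limma) and for Lif 0.69 ± 0.22 (adjusted p 0.040 from limma). These were the 2 probes of 9 that passed, which is 22.2%, beside 14.8% of all tested probes higher and 0.731% lower. Il6 gave 0.72 ± 0.28, with an adjusted p from limma of 0.064. After quantile normalization Il6 (1.77) and Il6r probe GE20279 (0.73) passed instead, and Cntf (0.81) and Lif (0.51) did not, beside 9.66% of all tested probes higher and 1.18% lower. Both Stat3 probes and Jak3 probe GE20012 had differences between -0.46 and -0.07, which did not pass.

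**Figure D3:**
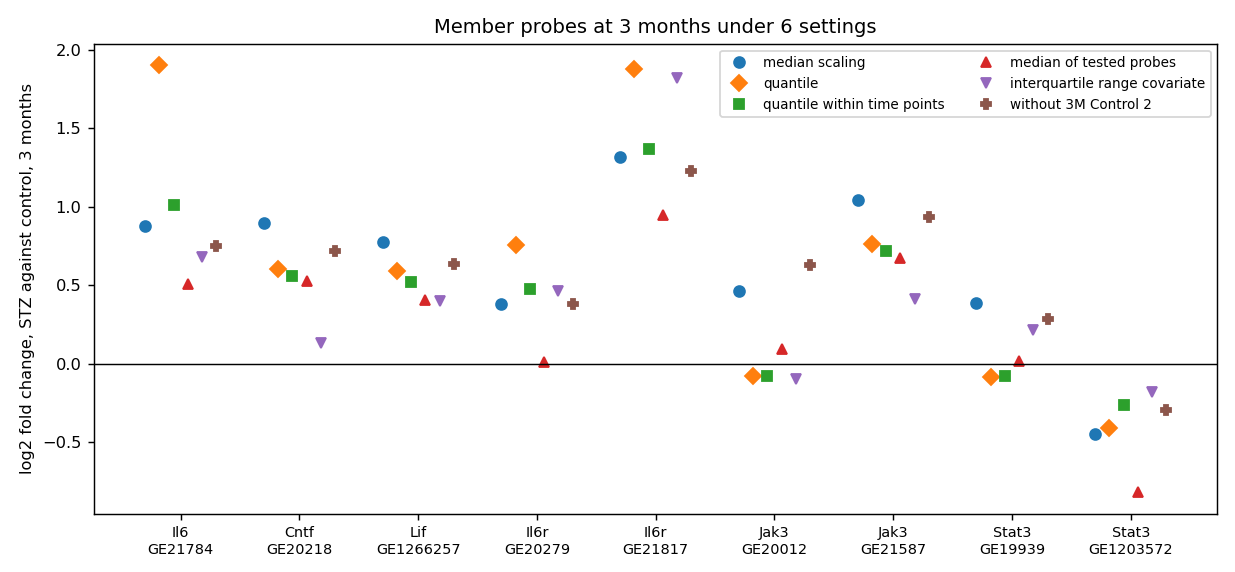
Log2 fold change of STZ against control at 3 months (y axis) for the 9 tested probes (x axis) under 6 ways of processing the arrays. Il6, Cntf, Lif, both Il6r probes and Jak3 probe GE21587 lie above 0 under all 6, with Il6r probe GE20279 at 0.01 when scaled to the median of the tested probes. Jak3 probe GE20012 and Stat3 probe GE19939 move to -0.08 after quantile normalization, and Stat3 probe GE1203572 lies below 0 throughout.

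How firmly the 3-month calls stood depended on the array as a whole. The probes of Il6, Lif, Il6r (GE20279) and Jak3 (GE21587) were called under median scaling and under quantile normalization over all arrays and within each time point. Cntf was called under the first and second but not within time points. When the interquartile range of each array was added as a covariate, 0 of the 9 probes passed at 3 months, and 0 of all 22025 tested probes did either. That range itself differed with STZ at 3 months, being 1.48 to 2.23 in controls and 2.07 to 2.70 in diabetic rats. The fit with this covariate therefore cannot separate an effect of STZ from the spread of the arrays. At an unadjusted p under 0.05, 1934 of all probes passed in that fit, and the 5 called probes gave 0.68 for Il6, 0.13 for Cntf, 0.40 for Lif, 0.47 for Il6r (GE20279) and 0.42 for Jak3 (GE21587) in it. The 3M Control 2 array stood apart, correlating with the other 3-month controls at a median of 0.84, whereas they correlated with each other at 0.95 or higher. Without it all 5 calls held, with log2 fold changes of 0.38 for Il6r (GE20279) to 0.94 for Jak3 (GE21587). The median intensity per array was 124 to 359.6 at 1 month. At 3 months it was 149 to 308 in controls (median 232) and 125 to 164 in diabetic rats (median 148), and the part of this difference in the calls was not tested.

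The other genes of the pathway were followed in 7 lists, with 1 probe for each gene. Among the named genes with 1 probe each, 56% were called higher at 3 months and 3.45% lower, and at 1 month limma called 0 of the genes of these lists. The interaction was called higher for 18.6% and lower for 0.889% of the named genes. The ligands outside the main genes were represented by Ctf1 alone, cardiotrophin-1, at 0.32 ± 0.15 (not called, and 1.01 and called after quantile normalization). Of the receptor chains only Il11ra1 was tested (-0.04 ± 0.18), and Lifr and Lepr were under the limit. Of the other kinases and Stat factors, Stat5a gave -0.12 ± 0.21 and was not called.

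Of the inhibitors of the pathway 3 of 6 tested genes were called higher and 0 lower, and the median log2 fold change was 0.35, below that of all probes. Pias2 (0.82) and Pias3 (0.62), which block Stat factors at DNA, and the phosphatase Ptpn1 (0.81) rose, while Ptpn2 (-0.11) and Socs1 (-0.06) did not pass. The interaction was called for Pias2 (1.06) and Ptpn1 (1.16). After quantile normalization none of the 6 was called by limma at 3 months or in the interaction, with changes of 0.34 for Pias2 and 0.29 for Ptpn1. Socs2 was under the limit.

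Among the partners of Jak3, Il2rb was the gene with the clearest difference. This beta chain of the receptors for interleukin-2 and interleukin-15 rose by 1.03 ± 0.18 at 3 months (adjusted p 0.00028 from limma), and its diabetic and control arrays did not overlap. Its change was 1.52 after quantile normalization, and the interaction of 0.80 was called. Il15, a ligand of that receptor, rose by 0.45, about the median of all probes, and Il4r gave 0.16 ± 0.45. The other 5 named genes of the list, which include Il2, Il4, Il7 and Il2ra, were under the limit. Beside the 56% of all named genes, 2 of 4 partners of Jak2 were called higher. These were Epor, the erythropoietin receptor (0.79, interaction 0.74 called), and Ifngr1, a chain of the interferon gamma receptor (0.75, interaction 0.97 called). Epo gave 0.33 and Il3ra 0.15, and neither was called. After quantile normalization Epor (0.52) and Epo (0.95) were called at 3 months and Ifngr1 (0.40) was not, and limma called none of the 4 interactions.

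Genes known as Stat3 targets or acute phase genes were the group with the highest median among the 7 under median scaling. After quantile normalization the list of other ligands, which held Ctf1 alone, was higher at 1.01. Of the 34 genes named on the array 27 were tested, 18 of them (66.7%) were called higher and 1 lower, and the median log2 fold change was 0.88. After quantile normalization 16 were called higher and 1 lower, and the median was 0.90 beside 0.16 for all probes. The highest were Timp1, an inhibitor of metalloproteinases (2.80 ± 0.54), Hmox1, heme oxygenase-1 (2.63 ± 0.36), and the transcription factor Cebpd (2.38 ± 0.33). The lowest were S100a9 (-0.49 ± 0.24, not called) and the survival gene Mcl1 (-0.37 ± 0.14, called lower). Many of these genes are switched on by other signals as well, and the list was drawn up with results of these arrays known.

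The interaction was called for 12 of the 27 genes, and for 10 after quantile normalization. Besides Timp1 (2.87), Hmox1 (2.25) and Cebpd (1.91) they were the complement inhibitor Serping1 (2.25), ceruloplasmin Cp (1.84), A2m (1.54), Vim (1.49), Serpina3n (1.31), the chemokine Ccl2 (1.16), Gfap (1.15), Lcn2 (1.07) and Junb (0.82). A2m encodes alpha-2-macroglobulin, the classic acute phase protein of the rat, and rose by 1.76 ± 0.23 at 3 months with no overlap of the groups. The median of the 27 genes at 1 month was 0.07. Socs3 and Stat3 themselves are also known targets of Stat3, and neither was called higher at 3 months under median scaling. Socs3 gave -0.96 in the fit without the limit. The Stat3 probes gave 0.39 ± 0.20 (GE19939) and -0.45 ± 0.20 (GE1203572), and neither passed the test. These values do not decide whether Stat3 changed. By PCR the study reported Stat3 as reproducibly higher in diabetic retina at the later time point.

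**Figure D4:**
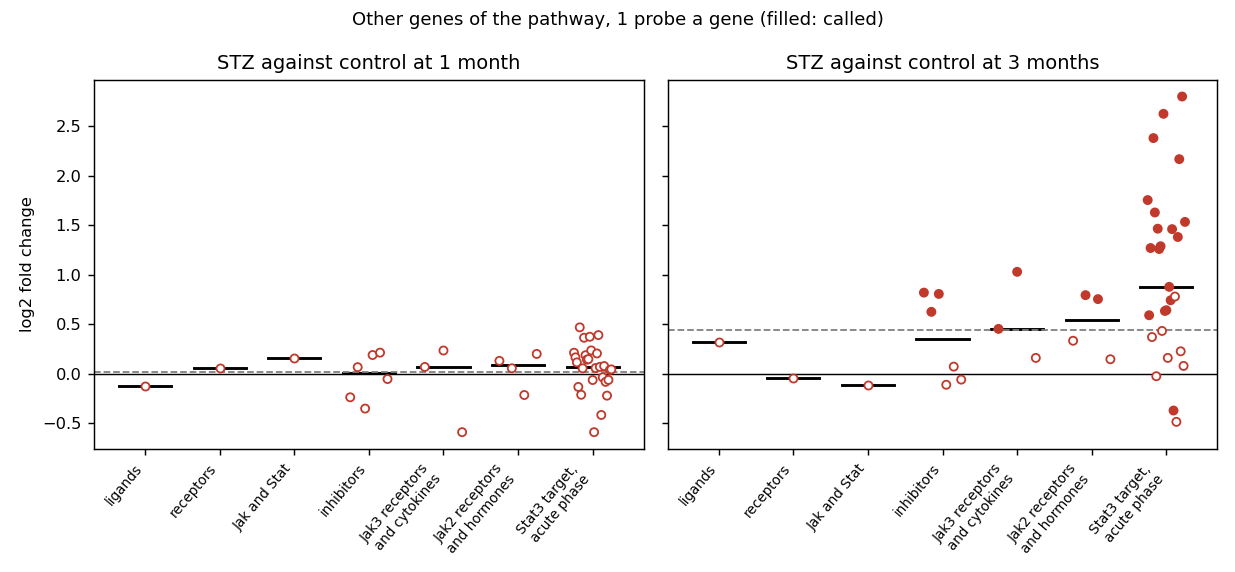
Log2 fold change of STZ against control (y axis) at 1 month and 3 months for the tested genes of 7 pathway lists (x axis), 1 point a gene. Filled points were called, black lines are list medians, and the dashed line is the median of all tested probes (0.01 and 0.44). No point is filled at 1 month, and the list of Stat3 target and acute phase genes has a median of 0.88 at 3 months.

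Markers of 10 cell types that the retina or its neighbours can hold were followed as lists. Their counts have to be read beside the 56% of named genes called higher at 3 months. After quantile normalization 24.6% of all tested probes were called higher. In bulk tissue fewer cells of a type and less RNA per cell cannot be told apart. The rod and cone markers, with Sag and Pdc among them, summed to 147 to 330.1 times the array median in 3-month controls and to 288 to 418 in diabetic rats. Of these 5 markers 3 were called higher under median scaling, but 0 higher and 1 lower after quantile normalization (median -0.30). All 5 tested markers of reactive glia rose at 3 months under both (medians 1.38 and 0.98), and 4 of them, Gfap, Vim, Lcn2 and Serpina3n, also stand in the list of Stat3 targets. Their summed scaled intensity was 15.9 to 40.5 in 3-month controls and 61.0 to 93.6 in diabetic rats, and at 1 month it was 47.8 to 77.2 and 45.4 to 91.6. Of the microglia and leukocyte markers 4 of 8 were called higher (median 0.44, and 3 of 8 after quantile normalization), with sums of 10.1 to 14.7 in controls and 14.0 to 19.7 in diabetic rats. All 6 named markers of T and B lymphocytes, the cells Jak3 is best known from, were under the limit, with medians of 0.17 to 0.54 times the array median. Lens crystallin and related genes were called higher for 7 of 8 markers (median 1.53), and for 3 of 8 after quantile normalization (median 0.55), with sums of 129.5 to 325 in controls and 408 to 827 in diabetic rats. In the other lists 2 of 4 markers of resting Müller glia, 2 of 2 of endothelium, 1 of 3 of erythrocytes (median -0.29), 1 of 4 of ganglion cells and 0 of 2 of pigment epithelium were called higher. After quantile normalization, limma called only the 1 erythrocyte marker among these. The part of these cell types in the changes of the IL-6 family genes was not tested.

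Genes whose pattern over the 24 arrays was most like that of a called gene were found among 2811 other named genes by the root mean square difference of standardized, quantile-normalized levels. For Il6 they were Drd5 (0.19 SD) and Ucp1 (0.21 SD), for Il6r Tas2r121 (0.26 SD) and Cmklr1 (0.29 SD), for Lif Impdh2 (0.41 SD) and Nfkbie (0.41 SD), and for Cntf Col5a1 (0.55 SD) and Ifitm2 (0.56 SD). The median over all genes was 1.12 to 1.26 SD. Jak3 was left out because the brighter of its probes was not called. The step between the 1-month and 3-month arrays enters this measure and differs from gene to gene. Likeness can therefore rest on that step rather than on STZ, and the measure is a description only.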

How the data were processed

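RNA of rat retinas was measured on 24 CodeLink whole genome arrays, with each array taken as 1 rat. Per the labels and the study's methods, the authors scanned the arrays, subtracted the local background with the CodeLink software, and normalized to the array median. The deposited files hold, for each spot, this background-subtracted intensity and the normalized intensity. The table of the whole series held the same normalized values (0 values differed), and the files held 3 missing values. Arrays carry no read depth. The number of arrays limits the precision, and p-values measure the spread between rats.

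The intensity was divided, array by array, by the median over its 33849 rat probes, set to at least 0.01 and taken to log2. Probes with a median scaled intensity over 0.554, which is the 35th percentile, and with at least 4 values in each group, were kept (22025). Groups came from the sample titles. The 4 groups were fitted in 1 model with limma 3.58.1 in R 4.3.3, with Benjamini-Hochberg adjustment over all tested probes. A call needed an adjusted p under 0.05 and a 1.2-fold change (no fold limit for the interaction). Of 200 simulated changed probes at 3 months, 39 of 50 were called at a log2 change of 1 and 9 of 50 at 0.5. In the data themselves 50.5% of all tested probes were called higher at 3 months. The adjustment depends on that share, so these counts do not measure the sensitivity of the 3-month test. Exact permutation tests over arrays were two-sided.

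Probes were named through RefSeq accessions, of which 4015 of 4798 matched the GRCr8 gene table, giving 4013 genes. No probe sequence was used. Other probes of the array carry accessions of other kinds and were tested but not named. The members and lists were chosen with earlier results of these data known. The genes named were all members, the 3 highest and 2 lowest of each pathway list at 3 months, genes called at 1 month or in the interaction, and the 2 genes most like each member whose brightest tested probe was called at 3 months. Alternatives changed the normalization, the filter, the floor, the test, the variance model and the arrays included. Of the genes in the lists, 2 are not reported here and were left out of the counts, medians and sums.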

Additional observations from a re-analysis of the deposited data

Results flagged for a closer look

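Of 44 sets of 6 levels (11 probes in 4 groups) 5 held an array far from the others by Dixon's criterion, which chance alone flags in about 1 of 20 sets. They included the Il6r probe GE21817 on 3M STZ 1 (5.28, the nearest array at -0.44) and the Socs3 probe on 3M Control 2 (2.69, nearest 0.74). The others were the Stat3 probe GE1203572 on 1M STZ 5 (0.070, nearest -0.79), the Cntf probe on 1M Control 2 (2.26, nearest 1.84) and the Lif probe on 1M STZ 5 (0.59, nearest 0.89). The Il6r spot had an intensity of 6357 on 3M STZ 1 and 62.6 to 106 on the other 5 arrays of its group. The 8 spots around it differed on that array by a median of 0.91 on the log2 scale, with a range of -0.31 to 7.43. Around the Stat3 spot on 1M STZ 5, all 8 neighbouring spots were also higher than on the other arrays of the group, by a median of 0.93, beside 1.13 for the spot itself. Around the Cntf and Lif spots the neighbours differed by medians of 0.03 and 0.05. The 7 neighbours of the Socs3 spot differed by a median of 0.36. The part of spot position in these values was not tested.

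Under median scaling the change with STZ differed between the time points, by the interaction test of limma, for Cntf (1.11, adjusted p 0.030) and Lif (0.69, adjusted p 0.040). Both changes were higher at 3 months. After quantile normalization neither passed that test (adjusted p 0.11 for Cntf and 0.18 for Lif from limma). All 6 diabetic Lif arrays at 3 months exceeded the median of their controls.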

How the results depend on the processing

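Apart from leaving out arrays, 18 alternatives were run, 1 of them (arrays scaled to the median of the tested probes) and the unfiltered fits of Jak2 and Socs3 under other settings being chosen after the data were seen. Of the values of single probes 356 kept their direction and call, 26 lost a call, 15 gained one and 11 changed sign. At 3 months the 5 calls became 3 among the 4 probes above the limit on all 24 arrays, 3 with the methods' unadjusted test, 1 (Jak3 GE21587) with that test after adjustment, and 0 with the interquartile range as covariate. They became 7 (6 higher, 1 lower) with the 5th percentile subtracted, 6 (5 higher, 1 lower, Stat3 GE1203572) in the permutation test, and 4 in separate models of the time points, where Il6r GE20279 was lost (adjusted p 0.054 from limma). At 1 month the 0 calls became 1 with array weights and 1 in the exact permutation test, both times Jak3 GE21587. The 2 interaction calls became 1 with quantile normalization within time points, 0 with the interquartile range as covariate and 0 when scaled to the median of the tested probes. The signs that changed at 3 months were those of Stat3 GE19939 (-0.082 in quantile normalization over all arrays, -0.080 within time points and -0.77 percentile points in ranks) and Jak3 GE20012 (-0.076 and -0.079 in these, and -0.10 with the interquartile range). With array weights, Stat3 GE1203572 at 1 month gave -0.000718, and the interactions of Stat3 GE19939 and Jak3 GE20012 gave 0.065 and 0.27. The interaction of Jak3 GE21587 gave -0.23 with the interquartile range, and that of Il6r GE20279 -0.016 when scaled to the tested probes. The causes were not tested.

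Leaving out each array in turn gave 5 to 6 calls at 3 months, 0 at 1 month and 0 to 3 in the interaction, which had none without 3M Control 3, 3M STZ 5 or 3M STZ 6. At 3 months Il6r GE20279 lost its call without 3M Control 1 (0.30). Calls were gained by Stat3 GE19939 without 3M Control 1 (0.52), Jak3 GE20012 without 3M Control 2 (0.63), Il6r GE21817 without 3M STZ 4 (1.65), and Stat3 GE1203572 (lower) without 3M Control 4, 3M Control 6, 3M STZ 6 or 1M STZ 5. Signs changed within the ranges of -0.17 to 0.097 for Stat3 GE1203572, -0.063 to 0.27 for Il6r GE21817 and -0.028 to 0.065 for Il6r GE20279 at 1 month, and in the interaction of -0.23 to 0.061 for Stat3 GE19939 and -0.23 to 0.10 for Jak3 GE20012. Control and STZ arrays share replicate numbers, and of 12 same-numbered pairs 5 had deviations correlated above 0.1 (range -0.24 to 0.25). Without a reference from differently numbered pairs, these values cannot decide whether the numbers pair the rats. With the replicate block 5 probes were called at 3 months, 0 at 1 month and 2 in the interaction. Unfiltered, Socs3 was lower at 3 months without any 1 array of that time (-1.15 to -0.58), and Jak2 lost its call without any 1 of 3M Control 1, 2 or 3 or 3M STZ 2, 3, 5 or 6.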
